A study of Mus musculus with 2 samples.

Results

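Expression of 8 genes of apoptotic cell clearance, Gas6, Pros1, Mfge8, Axl, Mertk, Tyro3, Stab1 and Cd300lf, was followed across the cell classes of a tendon injury site with and without irradiation. The 8 genes were given as a list of names and matched by symbol to the feature table, where all 8 were found among 32285 genes. The list was chosen by earlier Gas6 values of these libraries, lower in irradiated macrophages and higher in irradiated endothelium, so the Gas6 values are descriptions and support nothing further. Male C57BL/6J mice of 8 to 10 weeks received a burn of 30% of the body surface and transection of the left Achilles tendon, an injury after which bone can form in soft tissue, and the tendon site was collected at day 7. Injured mice that were not irradiated gave the control library. The irradiated library came from mice with the same injury and a single dose of 7 Gy through a 2 cm collimator, given on postoperative day 3 as far as the series text allows a reading. Unsorted cells were run on the 10x Genomics 3′ v3 assay with 1 library per group, and how many mice were pooled is not given in the sources used here. Library and treatment therefore cannot be told apart. The series asks how radiotherapy after surgery acts on bone formation in soft tissue.

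Clearance of dying cells, or efferocytosis, begins when phosphatidylserine appears on the outer face of their membrane. Gas6 and protein S (Pros1) are vitamin K dependent proteins that bridge this lipid to the receptor tyrosine kinases Tyro3, Axl and Mertk, from whose initials the family is named TAM. Gas6 can activate all members of the family, Pros1 acts through Tyro3 and Mertk, and Mertk is the receptor most closely tied to engulfment by macrophages while Axl is known to be induced by interferon and injury. Mfge8 (lactadherin) bridges phosphatidylserine to integrins, Stab1 (stabilin-1) is a scavenger receptor of macrophages and sinusoidal or lymphatic endothelium that binds the lipid directly, and Cd300lf is an immunoglobulin-type receptor of myeloid cells that also binds it.

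All 8 genes are protein coding in GENCODE M21 on GRCm38. Gas6 (ENSMUSG00000031451) lies on chromosome 8 from 13465374 to 13494490 on the minus strand, Pros1 (ENSMUSG00000022912) on chromosome 16 from 62854307 to 62929346 on the plus strand, and Mfge8 (ENSMUSG00000030605) on chromosome 7 from 79133768 to 79149060 on the minus strand. Axl (ENSMUSG00000002602) lies on chromosome 7 from 25757273 to 25788705 on the minus strand, Mertk (ENSMUSG00000014361) on chromosome 2 from 128698956 to 128802894 on the plus strand, and Tyro3 (ENSMUSG00000027298) on chromosome 2 from 119797733 to 119818104 on the plus strand. Stab1 (ENSMUSG00000042286) lies on chromosome 14 from 31139013 to 31168641 on the minus strand and Cd300lf (ENSMUSG00000047798) on chromosome 11 from 115116214 to 115133992 on the minus strand. No other counted gene overlaps any of them on the same strand. On the other strand Tmem255b overlaps Gas6, Gm14011 overlaps Mertk, Nt5dc2 overlaps Stab1 and Rab37 overlaps Cd300lf, and whether the counting used strand is not given in the sources used here.

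The 250 bases upstream of the RefSeq start (GRCm38.p6) are shown for Gas6, whose level moved in opposite directions in different classes, and for Axl and Cd300lf, which were both higher in macrophages and dendritic cells of the irradiated library. Capitals mark matches, searched on both strands, to any of 5 motifs: the Sp1 GC box GGGCGG, the interferon-stimulated response element, the gamma-activated site TTCNNNGAA, the E-box CACGTG and a single p53 decamer, which is only a part of a full p53 response element. The Gas6 window is chr8:13494536-13494785, the Axl window chr7:25788734-25788983 and the Cd300lf window chr11:115133993-115134242, all on the minus strand and printed 5′ to 3′ along the gene.
Gas6: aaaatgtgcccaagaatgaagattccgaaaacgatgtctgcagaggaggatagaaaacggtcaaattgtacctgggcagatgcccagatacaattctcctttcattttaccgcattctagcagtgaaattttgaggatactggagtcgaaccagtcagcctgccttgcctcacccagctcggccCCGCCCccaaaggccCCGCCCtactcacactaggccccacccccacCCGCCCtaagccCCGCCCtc
Axl: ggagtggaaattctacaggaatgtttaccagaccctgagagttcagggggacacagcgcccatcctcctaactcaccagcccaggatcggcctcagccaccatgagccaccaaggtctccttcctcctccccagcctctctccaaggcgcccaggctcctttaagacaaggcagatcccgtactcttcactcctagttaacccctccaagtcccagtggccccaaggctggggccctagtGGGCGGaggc
Cd300lf: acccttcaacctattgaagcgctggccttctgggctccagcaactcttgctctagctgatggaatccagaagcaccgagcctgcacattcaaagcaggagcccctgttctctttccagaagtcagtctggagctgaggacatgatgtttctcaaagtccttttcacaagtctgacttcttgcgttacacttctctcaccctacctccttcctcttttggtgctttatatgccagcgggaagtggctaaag
The capitals in the Gas6 window are 4 GC boxes, at 66, 51, 20 and 8 bases before the start. The Axl window holds 1 GC box, 10 bases before the start, and the Cd300lf window holds no match to any of the 5 motifs. Of 32851 RefSeq promoter windows of the same length, 32.7% hold a GC box, 2.98% the interferon-stimulated response element, 7.02% the gamma-activated site, 6.02% the E-box and 7.13% a p53 decamer. None of the 8 members had a match to the interferon-stimulated response element in its window. Pros1 had 1 match to the gamma-activated site and Mertk 1 to the p53 decamer, and matches of different motifs did not overlap in these windows. GC content was 54.8% for Gas6 and 60.0% for Axl.

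The control library held 11369 barcodes and 180080740 UMIs (unique molecular identifiers, each counted once per captured molecule) and the irradiated library 8302 barcodes and 111753092 UMIs. After filters and doublet removal 8744 control cells (median 13242 UMIs) and 7070 irradiated cells (median 10089.5 UMIs) remained. More control barcodes lay above the mitochondrial limit, 14.9% against 6.13%. The libraries shared 32 barcodes, 21 of them among kept cells. Classes were named from marker genes, and 9 classes had at least 50 cells in each library. Of these, 6 had at least 200 in each and were compared between libraries: mesenchymal (2324 control and 634 irradiated cells), macrophage and monocyte (2014 and 2666), keratinocyte (2113 and 1258), neutrophil (835 and 1249), endothelial (506 and 308) and dendritic (215 and 226). Pericytes with smooth muscle, Schwann cells and T and NK cells made up the other 3 classes. Tendon markers led 1 mesenchymal subcluster (Kera, Tnmd and Fmod, 329 and 80 cells).

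A level is in CPM, the UMIs of a gene per 1000000 UMIs summed over a class and library, given below with the control value first. Values in brackets are exact 95% intervals for counting error alone, and differences from mouse to mouse are not measured. With 1 library per group there is no test. A member is called higher or lower in the irradiated library when its ratio was at least 1.5-fold, its interval left out equality and the class held at least 20 UMIs of it over both libraries. Levels of different genes are not compared with each other.

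**Figure D1:**
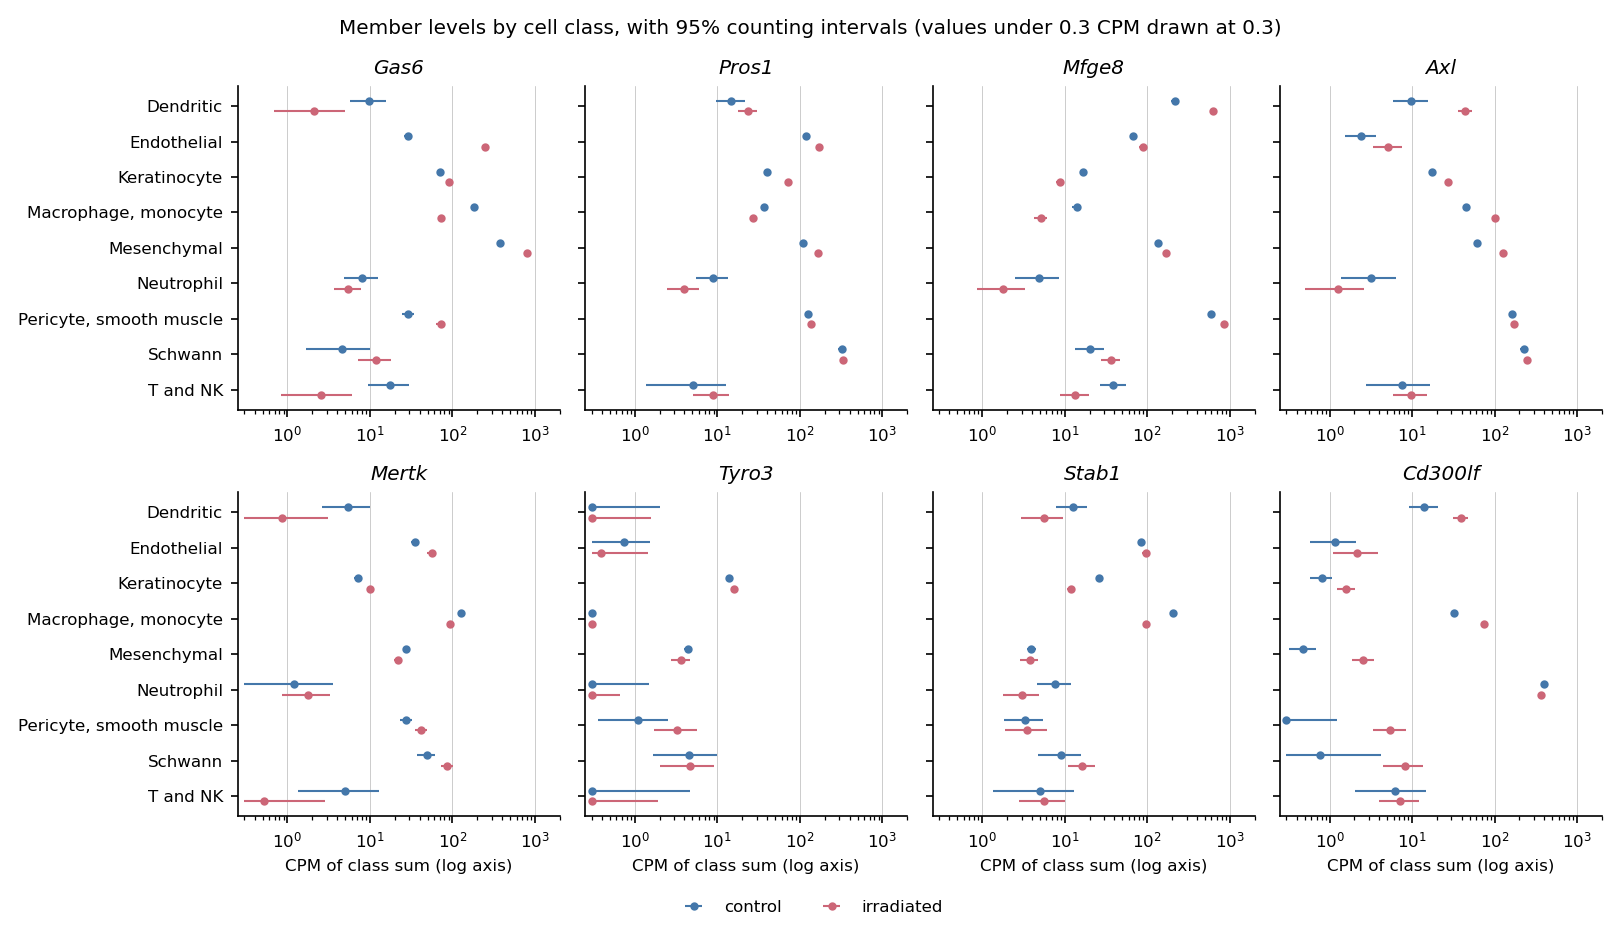
Level of each of the 8 genes in 9 cell classes, in CPM of the class sum on a log axis, control in blue and irradiated in red. Points are class sums, bars are 95% counting intervals and values under 0.3 CPM are drawn at 0.3. Gas6 shows red to the left of blue in macrophages (185 and 72.1 CPM) and to the right in endothelium (29.0 and 247 CPM).

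Gas6, the ligand of all TAM receptors, was highest in mesenchymal cells, and the libraries differed in opposite directions by class. In macrophages and monocytes its level was 185 CPM (179 to 192) and 72.1 CPM (68.9 to 75.3), a log2 ratio of -1.36 (-1.44 to -1.28). In endothelial cells it was 29.0 CPM (25.7 to 32.6) and 247 CPM (234 to 261), a log2 ratio of 3.09 (2.90 to 3.28), or 8.52-fold, which was 1.76 (1.64 to 1.89) with no doublets left out. Mesenchymal cells held 381 CPM (376 to 385) and 802 CPM (788 to 815), a log2 ratio of 1.07 (1.04 to 1.11). Gas6 was thus lower in irradiated macrophages and higher in irradiated endothelial and mesenchymal cells. Keratinocytes were at 70.4 and 91.2 CPM, a log2 ratio of 0.37 (0.31 to 0.44) that lay within 1.5-fold. In dendritic cells Gas6 was at 9.79 and 2.13 CPM, a log2 ratio of -2.20 (-3.98 to -0.72) on 18 and 5 UMIs. Dendritic subcluster 3, which carried macrophage markers (24 and 20 cells), held 8 and 0 of these UMIs. The call was lost without subclusters carrying red cell, macrophage or B cell markers, with equal subcluster weights and with cells thinned to 2000 UMIs. Each of these settings leaves out UMIs, and the class was already close to the minimum of 20. The losses therefore say nothing about the ratio, whose log2 value stayed negative under all 11 alternatives (-2.73 to -1.24). Pericytes and smooth muscle cells, for which no ratio was called, held 29.0 CPM (24.3 to 34.4) and 72.0 CPM (63.6 to 81.3). Gas6 was low in the remaining classes, with 8.04 and 5.40 CPM in neutrophils, 17.5 and 2.57 CPM in T and NK cells and 4.55 and 11.7 CPM in Schwann cells.

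Over all kept cells together the Gas6 level was 197 CPM in control tissue and 204 CPM after irradiation. The classes behind that sum differed. Mesenchymal cells were 26.6% of control cells and held 75.1% (74.6 to 75.6) of the Gas6 UMIs, and in the irradiated library 8.97% of cells held 64.4% (63.8 to 65.0). The macrophage share of Gas6 UMIs was 10.3% (9.94 to 10.6) and 8.94% (8.56 to 9.33), while macrophages were 23.0% and 37.7% of cells. The endothelial share was 0.896% (0.793 to 1.01) and 5.82% (5.51 to 6.14).

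**Figure D2:**
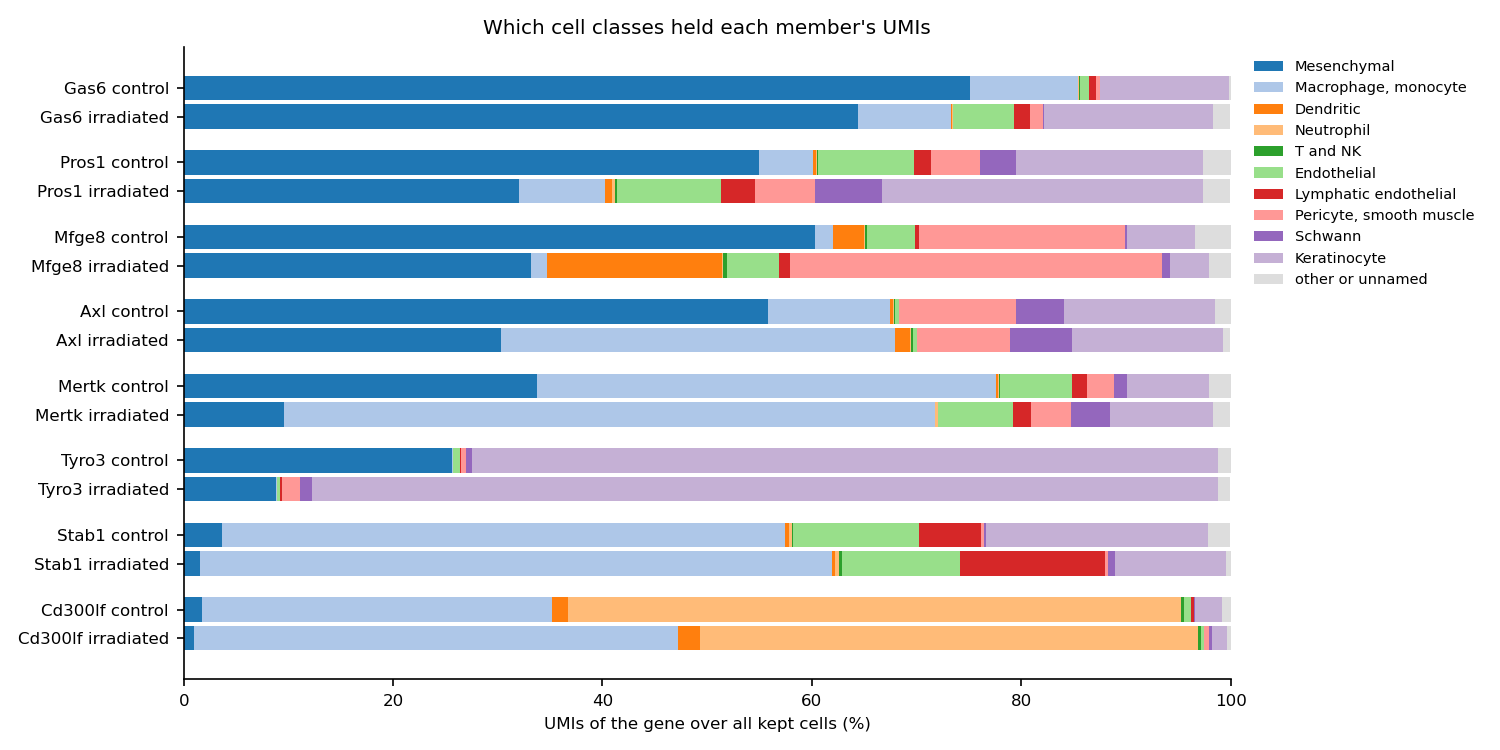
Share of each gene's UMIs held by each cell class, in percent of the UMIs of that gene over all kept cells, with the control bar above the irradiated bar. Mesenchymal cells hold most Gas6 UMIs in both libraries (75.1% and 64.4%), keratinocytes most Tyro3 UMIs (71.3% and 86.6%) and neutrophils with macrophages most Cd300lf UMIs.

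Within the macrophage class Gas6 was concentrated in particular cells. These cells were clustered again without the 8 genes, and levels were compared in subclusters of 20 cells or more per library. Subcluster 8, led by Cd209f, Cd163 and Vsig4, had the highest level, 1211 and 922 CPM, with 24 and 44 cells. Subcluster 1, led by Slc40a1, Ccl8 and Gas6 itself, was at 404 and 315 CPM. The log2 ratios of these 2 subclusters were -0.39 (-0.60 to -0.19) and -0.36 (-0.46 to -0.26), both within 1.5-fold. Subcluster 1 made up 35.0% of control macrophages and 10.8% of irradiated ones. Subcluster 0, led by Cd72, Grap2 and Spon1, made up 3.77% and 40.9%, and held little Gas6, 29.6 and 9.94 CPM, a log2 ratio of -1.57 (-2.34 to -0.71). Gas6 was low in the monocyte subcluster 4, led by Ifitm6, Plcb1 and Chil3 (5.66 and 1.87 CPM), and in the Lpl, Spp1 and Sdc1 subcluster 2 (16.0 and 18.1 CPM). With subclusters of at least 20 cells per library given the same weights in both libraries, the class log2 ratio was -0.41. Smaller subclusters were left out of that value, which no longer passed 1.5-fold. The class as a whole was also held by different clusters of the full data: clusters 3, 1 and 2 held 29.9%, 28.7% and 27.1% of control macrophages, and clusters 6, 1 and 2 held 25.5%, 20.9% and 16.6% of irradiated ones.

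**Figure D3:**
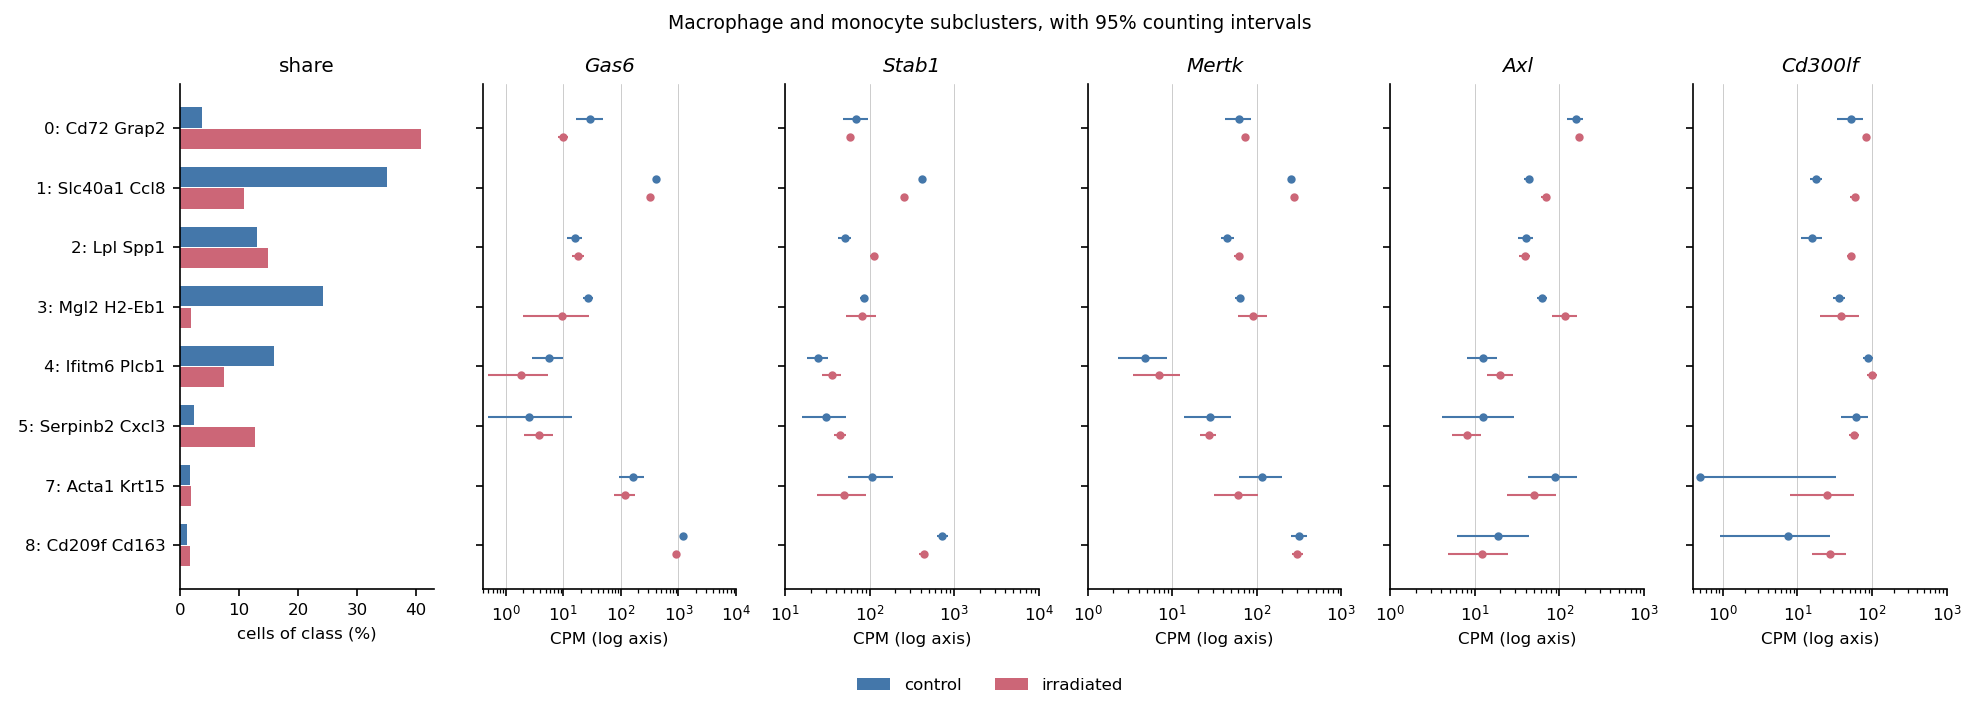
Macrophage and monocyte subclusters with at least 20 cells in each library, labelled by number and leading genes. The left panel gives each subcluster's share of the class in percent and the others the level of 5 genes in CPM on log axes, with 95% counting intervals and values under 0.5 CPM drawn at 0.5. Subcluster 1, at 404 and 315 CPM of Gas6, went from 35.0% to 10.8% of the class.

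Gas6 was higher in each of the 4 endothelial subclusters that reached 20 cells per library. The capillary-type subcluster 2, led by Lpl, Timp4 and Stxbp6, was at 52.6 CPM and 567 CPM, a log2 ratio of 3.43 (2.85 to 4.07), and made up 8.10% and 32.1% of the class. The venular-type subcluster 4, led by Lbp, Olr1 and F5, was at 51.3 and 352 CPM, a log2 ratio of 2.78 (2.22 to 3.40). Subcluster 0, led by Glycam1, Cmah and Ccl21a, was at 31.8 and 153 CPM, and the arterial-type subcluster 3, led by Gja5, Mgp and Nebl, at 47.1 and 116 CPM. The lowest log2 ratio among the 4 was the arterial one, 1.30 (0.69 to 1.93). After each cell was thinned to 2000 UMIs, which left out 15 control and 9 irradiated endothelial cells, 7.94% (5.71 to 10.7) of control and 44.8% (39.1 to 50.6) of irradiated endothelial cells had a Gas6 UMI. The same share in T and NK cells, a class not known to express Gas6, was 0.806% (0.0204 to 4.41) and 0.412% (0.0104 to 2.27). Without thinning, at median depths of 14818 and 12648 UMIs, the endothelial shares were 33.8% and 83.8%. At median depths of 4393 and 6212 UMIs, those of T and NK cells were 5.67% and 1.95%.

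Markers of other cell types differed between the libraries in endothelial cells, in both directions. The summed level of the 14 mesenchymal markers was 913 CPM in control and 293 CPM in irradiated endothelial cells, with 0 at 0 UMIs in the control and 1, Pdgfra, in the irradiated library. Of the 12 mesenchymal markers measured, 2 were higher and 8 lower. Per 1000 UMIs of Col1a1, Col1a2 and Col3a1, Gas6 stood at 44.2 (39.2 to 49.8) and 1580 (1494 to 1670) in endothelial cells, against 7.95 and 14.9 in mesenchymal cells. The ratio in macrophages was 439.8 (425 to 455) and 749.8 (717 to 784). Of 14 macrophage markers in endothelial cells 2 were higher, 6 lower and 0 at 0 UMIs. Keratinocyte markers summed to 766 and 193 CPM, with 14 of 14 measured lower. Neutrophil markers summed to 97.9 and 401 CPM, with 9 of 9 measured higher, and red cell markers to 109 and 271 CPM, with 4 of 4 higher. Their part in the endothelial Gas6 value was not tested.

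**Figure D4:**
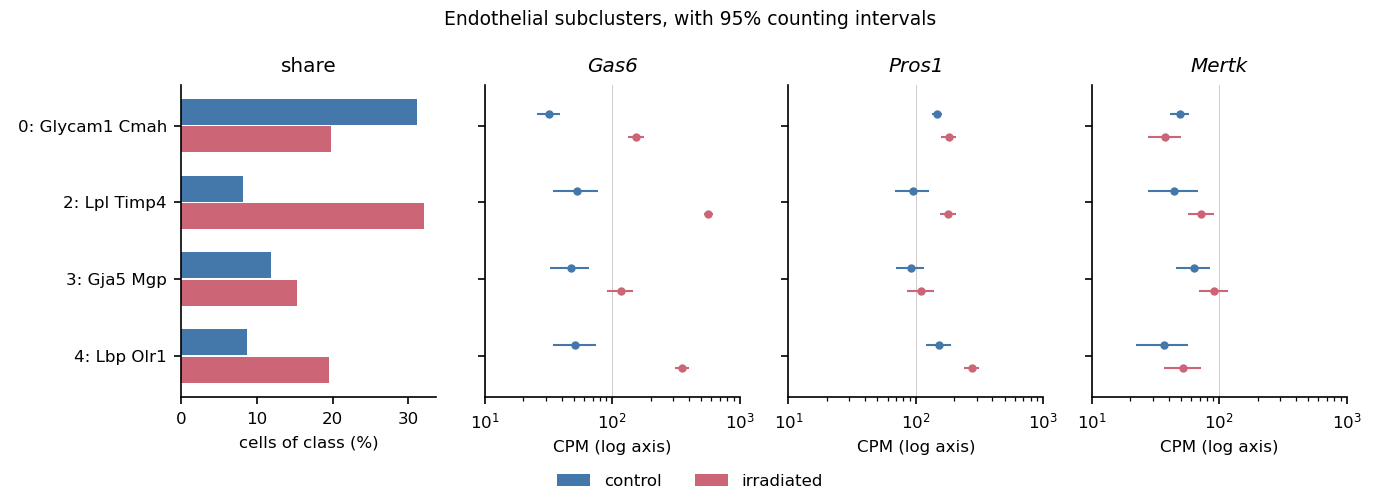
Endothelial subclusters with at least 20 cells in each library, labelled by number and leading genes. Panels give the share of the class in percent and the levels of Gas6, Pros1 and Mertk in CPM on log axes, with 95% counting intervals. The irradiated Gas6 point lies right of the control point in all 4 subclusters, from 116 to 567 CPM against 31.8 to 52.6 CPM.

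Among mesenchymal cells, subclusters also differed widely in Gas6. In the irradiated library it was highest in subcluster 7, led by Olfr1033, Gdf10 and Gria4 (881 and 2436 CPM, log2 ratio 1.47, 1.36 to 1.57). In the control the fascial progenitor-type subcluster 6, led by Clec3b, Tnxb and Cxcl13 (1121 and 1620 CPM, log2 ratio 0.53, 0.44 to 0.63), and subcluster 2, led by Bmper, Agtr2 and Vtn (1093 and 1088 CPM), lay above it. The myofibroblast-type subcluster 5, led by Apod, Tenm2 and Actg2, was at 140.2 and 494 CPM, and the tendon-marker subcluster 1 at 118 and 269 CPM. The dividing subcluster 3, led by Ube2c, Top2a and Hist1h1b, was at 102 and 108 CPM. Gas6 was thus higher in some mesenchymal subclusters and within 1.5-fold in others. The share of subcluster 6 was 2.75% of control and 25.9% of irradiated mesenchymal cells, and clusters 4 and 5 of the full data held 36.2% and 33.6% of control mesenchymal cells while cluster 10 held 50.2% of irradiated ones.

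Pros1, the gene of protein S, was highest in Schwann cells, at 323 CPM (293 to 355) and 329 CPM (303 to 357). Endothelial cells were at 118 CPM (112 to 126) and 173 CPM (162 to 185), a log2 ratio of 0.55 (0.42 to 0.67). Mesenchymal cells were at 110.3 CPM (108 to 113) and 164 CPM (158 to 169.7), a log2 ratio of 0.57 (0.50 to 0.63). Both lay just inside 1.5-fold, at 1.46-fold and 1.48-fold. Pericytes were at 124 CPM (114 to 135) and 137 CPM (125 to 149.5). In the control, pericytes and endothelial cells did not differ beyond counting error, while endothelial cells lay above mesenchymal cells. Endothelial and mesenchymal cells of the irradiated library did not differ beyond counting error. Pros1 was higher in irradiated keratinocytes, at 40.4 and 70.9 CPM, a log2 ratio of 0.81 (0.73 to 0.89). Among their subclusters, subcluster 8, led by Sox5, Abi3bp and Slc7a2, was higher at 39.9 and 130.4 CPM, while subcluster 6, led by Defb6, Cst6 and Krt79, was lower at 98.2 and 61.0 CPM. Macrophages were at 36.5 and 27.4 CPM, a log2 ratio of -0.42 (-0.57 to -0.26). Their subcluster 8, the richest in Gas6, was also the richest in Pros1 (413 and 378 CPM). Within endothelium Pros1 was higher in the capillary-type subcluster (94.7 and 179 CPM) and in the venular-type subcluster 4 (152 and 276 CPM). Keratinocytes held 17.8% and 30.7% of all Pros1 UMIs, and mesenchymal cells 55.0% and 32.0%.

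Mfge8 was highest in pericytes and smooth muscle cells, at 594 CPM (572 to 617) and 853 CPM (823 to 883). In dendritic cells it was at 217 CPM (196 to 239) and 627 CPM (595 to 659.9), a log2 ratio of 1.53 (1.37 to 1.69). That class value rested on few cells: subcluster 6, led by Cd207 (langerin, the marker of Langerhans cells), held 365 of 399 control UMIs and 1411 of 1470 irradiated UMIs in 9 and 18 cells. This subcluster was at 3966 and 5565 CPM, a log2 ratio of 0.49 (0.32 to 0.66) on too few cells for a call, and made up 4.19% and 7.96% of the class. Mesenchymal cells were at 136 and 169 CPM, a log2 ratio of 0.31 (0.25 to 0.37), and endothelial cells at 66.6 and 88.2 CPM, a log2 ratio of 0.40 (0.23 to 0.58). Mfge8 was lower in irradiated macrophages, 14.0 CPM (12.2 to 15.8) and 5.10 CPM (4.28 to 6.03), a log2 ratio of -1.45 (-1.77 to -1.14), and in keratinocytes, 16.5 and 8.77 CPM. The keratinocyte log2 ratio of -0.91 (-1.09 to -0.73) was -0.43 with equal subcluster weights, within 1.5-fold. Keratinocytes sat in different subclusters in each library: subcluster 0, led by Pi15, Hmga2 and Ube2c, made up 18.4% and 7.95% of the class, and subcluster 4, led by Krt6b, Sprr2d and Sprr1b, 15.2% and 5.48%. In macrophages the difference was greatest among the subclusters compared in subcluster 2, at 43.1 and 6.80 CPM. Mesenchymal markers moved the same way in both classes: of 14 measured in each, 11 were lower, and their sum was 557 and 147 CPM in macrophages and 1237 and 473 CPM in keratinocytes, with none at 0 in either library. Their part in the Mfge8 values was not tested.

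The receptors had distinct class patterns. Axl was highest in Schwann cells, 227 CPM (202 to 254) and 249 CPM (226 to 274), followed by pericytes, 163 CPM (151 to 175) and 172 CPM (159 to 186). It was higher in irradiated macrophages, 45.1 CPM (41.9 to 48.4) and 101 CPM (97.2 to 105), a log2 ratio of 1.16 (1.05 to 1.28). It was also higher in mesenchymal cells, 60.5 and 126 CPM, a log2 ratio of 1.05 (0.98 to 1.13), and in dendritic cells, 9.79 and 43.5 CPM, a log2 ratio of 2.15 (1.42 to 2.96). In that class the 24 and 20 macrophage-marked cells of subcluster 3 held 10 of 18 and 51 of 102 Axl UMIs (35.2 and 196 CPM), and without mixed subclusters the ratio was 2.41 (1.26 to 3.80). Keratinocytes were at 17.6 and 27.0 CPM, a log2 ratio of 0.62 (0.49 to 0.74). Endothelial cells held few Axl UMIs, 23 and 26 (2.42 and 5.14 CPM), and the higher call there, at a log2 ratio of 1.09 (0.22 to 1.96), turned to -0.64 with a stricter cell filter.

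Among macrophage subclusters with 20 cells or more per library Axl was highest in subcluster 0, which has class II genes and Axl itself among its 10 leading genes, at 155 and 171 CPM, a log2 ratio of 0.14 (-0.17 to 0.48). Subcluster 6, led by the interferon-induced genes Ifit1bl1, Cxcl10 and Rsad2, was at 164 CPM (101 to 251) and 218 CPM (196 to 242) in 16 and 176 cells, and made up 0.794% and 6.60% of the class. Axl was higher in subcluster 1 (43.0 and 68.7 CPM) and subcluster 3, led by Mgl2, H2-Eb1 and H2-Aa (61.8 and 116 CPM). With subclusters weighted alike the class log2 ratio of Axl was 0.29, and that of mesenchymal cells 0.39, neither past 1.5-fold. Subclusters under 20 cells in either library, among them macrophage subcluster 6, were left out of these values. Mesenchymal Axl was highest in the fascial progenitor-type subcluster 6, 298 and 221 CPM, whose share of the class differed as given above. After thinning, which left out 115 and 146 macrophages, 7.42% (6.29 to 8.70) of control and 16.1% (14.7 to 17.6) of irradiated macrophages had an Axl UMI, against 0.432% and 0.369% of neutrophils. Without thinning these shares were 19.9% and 39.7% of macrophages, at median depths of 7689 and 9687 UMIs, and 0.719% and 0.560% of neutrophils, at 2107 and 3114 UMIs.

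Mertk was highest in macrophages among the 9 classes, 126 CPM (121 to 132) and 92.4 CPM (88.8 to 96.1), a log2 ratio of -0.45 (-0.53 to -0.37) that lay within 1.5-fold. In subcluster 1 it was at 251 and 276 CPM (log2 ratio 0.14, 0.02 to 0.25), and in subcluster 8 it was at 319 and 301 CPM. Endothelial Mertk was higher in the irradiated library, 35.6 CPM (31.9 to 39.6) and 56.1 CPM (49.8 to 63.1), a log2 ratio of 0.66 (0.42 to 0.89). It was 0.18 with subclusters weighted alike, which used subclusters 0, 2, 3 and 4. Their log2 ratios were -0.38, 0.70, 0.54 and 0.51, none of them called. Subclusters under 20 cells in a library were left out, among them subcluster 1 (24.5 and 72.5 CPM, 124 and 17 cells) and subcluster 7 (36.8 and 28.2 CPM, 13 and 10 cells). Schwann cells held 48.5 CPM (37.4 to 61.9) and 86.4 CPM (73.0 to 101), and the second value did not differ from the macrophage level beyond counting error. Macrophage markers in the Schwann class summed to 113 and 702 CPM, with 9 of 9 measured higher, and their part in its Mertk level was not tested. Mesenchymal cells were at 27.2 and 21.9 CPM. In keratinocytes Mertk was low, 7.10 and 10.1 CPM, and concentrated in subcluster 5, led by Sema3e, Cxcl14 and Enox1 (78.0 and 85.7 CPM).

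Tyro3 passed the minimum of 20 UMIs in keratinocytes, 14.0 and 16.0 CPM, and in mesenchymal cells, 4.44 and 3.59 CPM, and in no other class compared. Neither log2 ratio, 0.19 (0.04 to 0.35) and -0.31 (-0.73 to 0.10), passed 1.5-fold. Keratinocyte subclusters went in both directions: Tyro3 was higher in subcluster 6 (7.21 and 36.1 CPM) and subcluster 2 (2.83 and 8.92 CPM) and lower in subcluster 0 (11.5 and 7.24 CPM). Among 2014 control and 2666 irradiated macrophages 1 Tyro3 UMI was counted in each library. Neutrophils, dendritic cells and T and NK cells had 0 UMIs in both, which in neutrophils allowed up to 1.21 CPM and 0.540 CPM by the limit of 3 counts.

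Joint detection within macrophages was read after the same thinning. In the control, 16.3% (14.6 to 18.0) of macrophages had a Mertk UMI without Axl and 6.32% (5.27 to 7.51) an Axl UMI without Mertk. In the irradiated library these shares were 10.8% (9.65 to 12.1) and 13.8% (12.5 to 15.2). Both receptors were seen in 1.11% (0.686 to 1.69) and 2.30% (1.75 to 2.97). Gas6 and Mertk were seen together in 7.11% (5.99 to 8.36) and 2.78% (2.17 to 3.50). These shares pool subclusters of unlike composition, so they describe the class and not single cells of a type.

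Stab1 was highest in lymphatic endothelial cells, 453 CPM (409 to 500.5) and 643 CPM (592 to 697), a class of 58 and 44 cells that was added after seeing the data because it fell under the minimum of 50. In macrophages it was lower in the irradiated library, 206 CPM (199 to 213) and 97.2 CPM (93.5 to 101), a log2 ratio of -1.08 (-1.16 to -1.01). It was also called lower inside the cells that held most of it, in subcluster 1 (415 and 257 CPM, log2 ratio -0.69, -0.80 to -0.59) and subcluster 8 (724 and 436 CPM, -0.73, -1.01 to -0.45). In subcluster 2 Stab1 was higher, 50.9 and 111 CPM. Weighted alike, the class log2 ratio was -0.37. Blood endothelial cells were at 83.7 and 95.5 CPM (log2 ratio 0.19, 0.02 to 0.36). Stab1 was lower in keratinocytes, 25.9 and 11.9 CPM, a log2 ratio of -1.12 (-1.28 to -0.97) that was -0.55 with equal subcluster weights. Keratinocyte subclusters 0 (31.9 and 22.1 CPM) and 4 (44.3 and 34.2 CPM), whose shares are given above, lay within 1.5-fold, while subclusters 3 (9.70 and 2.24 CPM) and 7 (57.0 and 28.9 CPM) were lower. In dendritic cells Stab1 was lower at 12.5 and 5.54 CPM on 23 and 13 UMIs, a call kept under 7 of 11 alternatives. Those 11 leave out the other UMI minimums, and these UMIs are too few for the minimum of 50.

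Cd300lf was highest in neutrophils, 391 CPM (366 to 416) and 365 CPM (349 to 381), a log2 ratio of -0.10 (-0.21 to 0.01). It was higher in irradiated macrophages, 32.4 CPM (29.8 to 35.2) and 73.9 CPM (70.7 to 77.3), a log2 ratio of 1.19 (1.05 to 1.33), and in dendritic cells, 14.1 and 38.8 CPM, a log2 ratio of 1.46 (0.81 to 2.15). The macrophage difference was present inside subcluster 1 (18.0 and 59.0 CPM), subcluster 2 (15.6 and 52.8 CPM) and subcluster 0 (51.8 and 82.3 CPM), while the monocyte subcluster 4 was at 88.7 and 101 CPM. The higher call in mesenchymal cells, 0.477 and 2.55 CPM on 29 and 44 UMIs, came with immune genes: subcluster 8, led by Cfd, Car3 and S100a9, held 9.82 and 27.1 CPM, and all 14 macrophage markers were measured in the class, 13 of them higher, summing to 300.4 and 529 CPM. Without subclusters carrying markers of another class the mesenchymal log2 ratio was -1.39 on too few UMIs to call. Over all kept cells Cd300lf was at 10.6 and 40.5 CPM. Neutrophils were 9.55% and 17.7% of cells and held 58.5% and 47.5% of the Cd300lf UMIs. Macrophages were 23.0% and 37.7% of cells and held 33.4% and 46.2% of them.

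Counted by class, 2 members were higher (Axl and Cd300lf) and 3 lower (Gas6, Mfge8 and Stab1) of 7 measured in macrophages, where 6.32% of all genes were higher and 12% lower. The members' median log2 ratio there was -0.45 and that of all genes -0.12. In endothelial cells 3 of 7 were higher (Gas6, Axl and Mertk) and 0 lower, beside 8.28% and 4.68% of all genes, with medians of 0.66 and 0.01. In mesenchymal cells 3 of 8 were higher (Gas6, Axl and Cd300lf) and 0 lower, beside 12.6% and 6.87%. In keratinocytes 3 of 8 were higher (Pros1, Axl and Cd300lf, the last at 0.800 and 1.60 CPM) and 2 lower (Mfge8 and Stab1), beside 6.99% and 7.75%. Keratinocyte subcluster 7, led by Il1b, Cxcl2 and Srgn and carrying macrophage markers (92 and 45 cells), held 24 of 43 and 44 of 61 Cd300lf UMIs, and without mixed subclusters that log2 ratio was 0.53 (-0.54 to 1.61), not called. In dendritic cells 3 of 6 were higher (Mfge8, Axl and Cd300lf) and 2 lower (Gas6 and Stab1), beside 6.38% and 5.85%. In neutrophils 3 of 5 were lower (Pros1, Mfge8 and Stab1, all under 10 CPM) and 0 higher, beside 27.6% and 4.94%, and the median of all genes was -0.37. The neutrophil count went to 0 when levels were scaled by that median. The choice of members knew the Gas6 directions, so nothing is read from these counts.

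**Figure D5:**
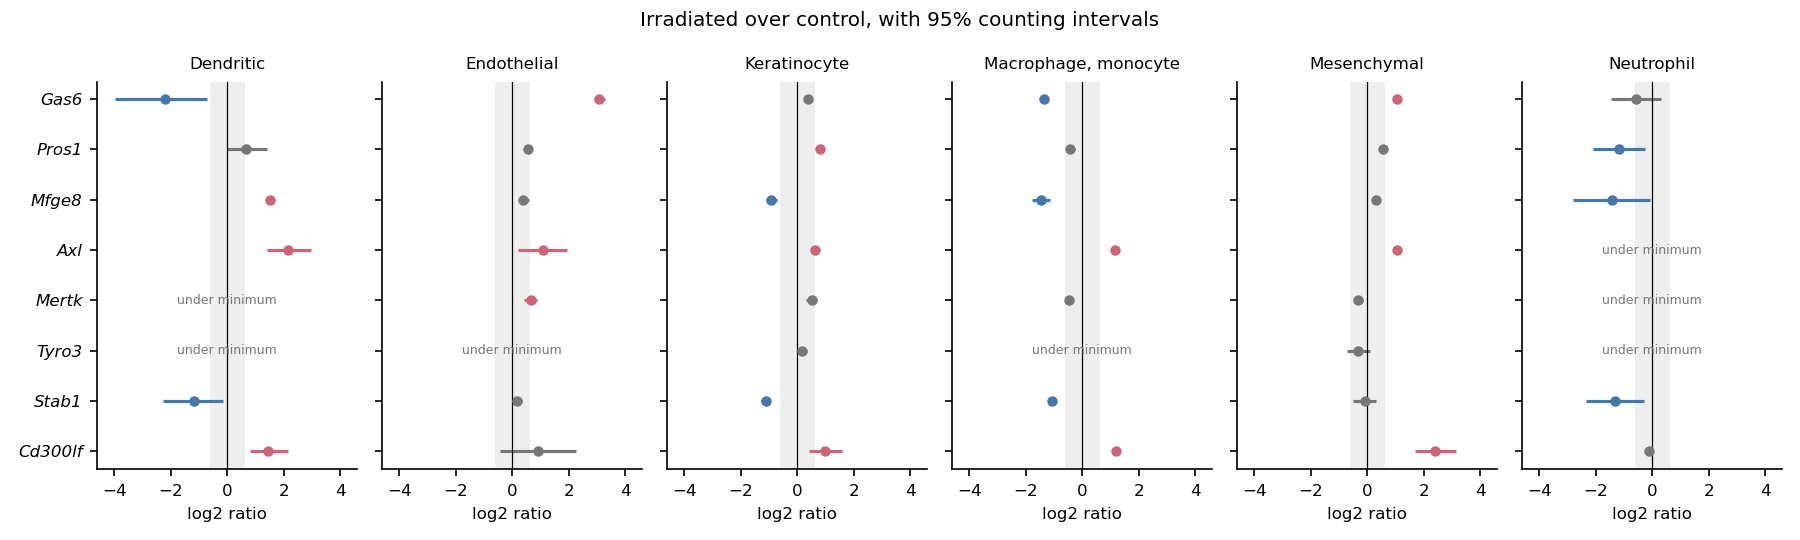
Log2 ratio of irradiated over control level for the 8 genes in 6 classes, with 95% counting intervals. Grey bands mark ratios under 1.5-fold, red points are called higher, blue lower and grey neither, and members under the 20 UMI minimum are written as such. Axl lies right of 0 in each class where it was measured, while Gas6 lies left in macrophages (-1.36) and right in endothelium (3.09).

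Other genes of the pathway came from fixed lists and were read the same way. Of all genes measured in macrophages 6.32% were higher and 12% lower. In macrophages 20 engulfment genes were measured, and 0 were higher and 1 lower (Gulp1, an adaptor, 1.40 and 0.375 CPM). Of 25 lysosome and corpse-processing genes 1 was higher, Slc7a11 (314 and 603 CPM), and 0 lower. Of 22 other receptors for apoptotic cells 3 were higher and 1 lower. Cd14, a co-receptor for lipopolysaccharide, was at 695 and 1176 CPM, Olr1, the oxidised lipoprotein receptor, at 27.4 and 56.0 CPM, and Timd4, a phosphatidylserine receptor, at 0.117 and 1.31 CPM. Mrc1, the mannose receptor, was lower at 902 and 433 CPM. Of 12 bridging and opsonin genes 4 were lower, among them Edil3, a relative of Mfge8 (157 and 87.8 CPM), and 0 higher. Edil3 was also lower in endothelial cells, keratinocytes, mesenchymal cells and neutrophils. Mesenchymal markers in the macrophage class summed to 557 and 147 CPM, and their part in these calls was not tested. Of 14 genes acting downstream of TAM receptors 4 were higher, among them Socs1 (25.7 and 50.1 CPM) and Socs3 (170.4 and 279.9 CPM), which restrain cytokine signalling, and Il10 (50.8 and 78.5 CPM). Their median log2 ratio was 0.12, beside -0.12 for all genes.

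In endothelial cells 4 of 10 find-me genes, whose products attract phagocytes or sense the signal, were higher and 0 lower, including the chemokine Cx3cl1 (13.6 and 34.4 CPM). Of all genes measured in that class 8.28% were higher and 4.68% lower. Of 12 transcription factors known to raise efferocytosis genes 4 were higher, among them Klf4 (256 and 397 CPM) and Nr4a1 (129.8 and 201 CPM), and 2 were lower, among them Maf. Of 11 bridging and opsonin genes 1 was higher, Thbs1 (182 and 377 CPM), and 5 lower, and of 18 other receptors 5 were higher, Olr1 the most (4.73 and 41.5 CPM). In mesenchymal cells 11 of 21 other receptors were higher, led by Cd300ld, Msr1, Cd300a and Cd300lb, all under 10 CPM and known from immune cells, beside the macrophage markers given above. Their part in that count was not tested. Of all genes measured in mesenchymal cells 12.6% were higher and 6.87% lower. The carboxylation genes Ggcx, Vkorc1 and Vkorc1l1, whose products activate Gas6 and protein S, gave 0 calls in 5 of the 6 classes. In neutrophils, where 27.6% of all genes were lower, Vkorc1 (10.1 and 1.08 CPM) and Vkorc1l1 (29.4 and 11.0 CPM) were lower.

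The interferon-stimulated genes, a list kept because interferon is known to induce Axl and TAM signalling is known to restrain interferon responses, were higher in each class compared. All 9 found in the feature table were higher in each of the 6 classes, with median log2 ratios of 1.89 in macrophages, 2.23 in endothelial, 3.29 in mesenchymal, 2.87 in keratinocyte, 1.54 in dendritic and 2.38 in neutrophil sums. Of all genes, from 4.94% (neutrophils) to 12.6% (mesenchymal cells) were higher. Irf7, the interferon regulator, was at 63.6 and 326 CPM in macrophages, 14.5 and 135 CPM in endothelial cells and 4.52 and 93.1 CPM in mesenchymal cells. Mx1 was not matched by symbol. Their relation to the members was not tested.

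Over the 18 sums of 9 classes in 2 libraries, the genes most like each member in log2 level among 7603 compared were described by Pearson's r. For Gas6 they were Pdgfc (0.85), Flrt2 (0.83) and Gaa (0.81), and for Pros1 they were Ro60, Snx7 and Sox4 (each 0.96). Mfge8 was most like Gstt1 (0.87), Adcy6 (0.86) and Uap1 (0.84), and Axl was close to Chpt1 (0.95) and Ttyh2 (0.91). Among the genes close to Mertk were Pikfyve (0.91) and Sash1 (0.90), and among those close to Tyro3 were Pard6g (0.96) and Hr (0.95). Stab1 was most like Rab5c (0.94), Tbc1d22a (0.87) and Dram2 (0.86), and Cd300lf most like Cyp4f18 (0.99), Pilrb2 (0.98) and A530064D06Rik (0.98). Sums of 1 library share its depth and handling, and both sums of a class share its cell type, so the 18 points are not independent.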

How the data were processed

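The authors deposited UMI counts, not normalised, produced with Cell Ranger (version 5.0.1 per the file headers) against mm10 per the submitters' processing notes. Further filters by the authors are not given in the sources used here. The members, gene lists, markers, filters and rules were chosen with earlier results of these data known.

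Barcodes under 500 genes or 1000 UMIs, or over 10% mitochondrial UMIs, were dropped. Doublets with a Scrublet score of 0.25 or more in either library were left out (496 control and 120 irradiated, 5.37% and 1.67% of the filtered barcodes). The 2 libraries were clustered together without integration in scanpy 1.11.5 (2000 variable genes without the 8 members, 30 principal components, 15 neighbours, Leiden resolution 1.0, leidenalg 0.10.2, seed 0, subclusters at 0.5). A class name needed 3 listed markers that reached 50 CPM and exceeded the median cluster 2-fold, a mean marker log2 fold of 2, and no unrelated class above 0.75 of that mean. Names rest on transcripts alone and were rebuilt here. UMIs were summed per class and library. Levels carry exact Poisson intervals, ratios exact conditional intervals and shares exact Clopper-Pearson intervals, all at 95%, from scipy 1.17.1. Ratio calls were run on simulated Poisson counts, the model that the intervals assume. Those counts hold no variation between cells, mice or libraries, so the run checks the calculation only. Likeness used log2(CPM + 10) over genes at 50 CPM or more in at least 1 sum. Named genes were all members, up to 4 genes of each list with the greatest absolute log2 ratio among those called, every gene of a count of 5 or fewer that is named, 3 like genes per member and 3 leading genes per subcluster. Alternatives were other cell filters, doublet rules, resolutions, thinning, equal subcluster weights, median scaling, other fold and UMI minimums, and, added after seeing the data, leaving out subclusters with markers of another class and showing the lymphatic class. Equal weights used only subclusters of at least 20 cells in each library, so that setting also left out cells. Positions came from GENCODE M21, where all 8 gene IDs were found. Some genes that the naming rules select are counted but not reported here by name.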

Additional observations from a re-analysis of the deposited data

Results flagged for a closer look

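The genes below differed in direction between cell classes. With 1 library per group, none of these differences was tested. The log2 ratio of Gas6 in endothelial cells (3.09) lay 5.29 above that in dendritic cells (-2.20), where it rested on 18 and 5 UMIs, and that in macrophages was -1.36. The log2 ratio of Mfge8 in dendritic cells (1.53) lay 2.98 above that in macrophages (-1.45), and the dendritic value rested on a Cd207-led subcluster of 9 and 18 cells. Within that subcluster the log2 ratio was 0.49 (0.32 to 0.66), and its share of the class was 4.19% and 7.96%. The log2 ratio of Pros1 in keratinocytes (0.81) lay 1.97 above that in neutrophils (-1.16), where 22 UMIs were counted in each library and the call was lost under scaling by the median gene.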

How the results depend on the processing

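The higher Gas6 call in endothelial cells kept its direction and its side of the threshold under 11 of 11 alternatives (log2 ratio 1.76 to 3.25), as did Gas6 in mesenchymal cells (0.76 to 1.32), Cd300lf in macrophages (0.76 to 1.31) and Mfge8 in macrophages (-1.65 to -1.19). The 11 do not include the other fold and UMI minimums, which enter the counts of members below. Calls kept their side in 10 of 11 for Gas6 (-1.59 to -0.41), Axl (0.29 to 1.28) and Stab1 (-1.26 to -0.37) in macrophages, the exception being equal subcluster weights. Of 14 higher and 10 lower calls together, 13 were lost with equal weights and 10 with cells thinned to 2000 UMIs. A call also counted as lost where a setting left fewer than 20 UMIs, whatever the ratio. After thinning, for example, Gas6 was seen in 4 and 1 dendritic cells and Axl in 2 and 3 endothelial cells. The losses are therefore not a count of changed ratios. Equal weights also left out subclusters under 20 cells in either library, among them the Cd207-led dendritic one. Endothelial Axl turned to -0.64 with the stricter filter, -0.02 with no doublets left out and -0.45 at resolution 0.5, and mesenchymal Cd300lf to -1.39 without mixed subclusters. The causes were not tested.

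Counts of members called moved as follows. With equal weights, macrophages had 1 higher and 1 lower, endothelial cells 1 higher, keratinocytes 0 lower, dendritic cells 1 lower and neutrophils 0 lower. Thinned, endothelial cells had 1 higher, and dendritic cells and neutrophils 0 lower each. With a minimum of 50 UMIs, and without mixed subclusters, dendritic cells and neutrophils had 0 lower, and under median scaling neutrophils had 0 lower. At 2-fold keratinocytes had 0 higher and 1 lower. With the stricter filter dendritic, endothelial and neutrophil cells had 1 lower each, and with no filter dendritic cells had 1 lower. With no doublets left out mesenchymal cells had 1 lower and neutrophils 2 higher. Shares of all genes were not taken at these settings, so nothing is read from the size of these counts.

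Counts over all pathway lists at 2-fold were 9 higher in dendritic cells (15 at 1.5-fold), 21 higher and 5 lower in endothelial cells (33 and 9), 11 higher in keratinocytes (17), 5 lower in macrophages (10), 3 lower in mesenchymal cells (6) and 12 lower in neutrophils (33). Without mixed subclusters dendritic cells had 5 lower (12 with them) and mesenchymal cells 30 higher (51). Under median scaling neutrophils had 25 higher and 11 lower (10 and 33). Shares of all genes were taken only at 1.5-fold with every subcluster and no scaling, so nothing is read from the size of these counts. The log2 ratio of the share of endothelial cells with a Gas6 UMI was 2.50 thinned to 2000 UMIs, 1.31 not thinned and 3.27 thinned to 1000, and that of macrophages with Mertk -0.41 and, not thinned, -0.15.

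No paired analysis was possible because each group holds 1 library. Levels under about 10 CPM rest on few UMIs in the smaller classes, and no value here measures variation between mice.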

Other observations

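Lymphatic endothelial cells (58 control and 44 irradiated cells) carried several members. Gas6 was at 229 CPM (199 to 264) and 346 CPM (309 to 387), Pros1 at 227 CPM (196 to 261) and 313 CPM (278 to 351), and Mertk at 83.9 CPM (65.6 to 106) and 70.6 CPM (54.5 to 90.0). Axl was counted 0 and 2 times there. In the clusters left unnamed, 121 and 66 cells that mostly carried endothelial together with pericyte genes, Gas6 was at 17.5 CPM (13.3 to 22.6) and 239 CPM (214 to 267).

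In dendritic cells 6 of 19 other receptors for apoptotic cells were lower, among them Cd36 (36.4 and 0.427 CPM, with 67 and 1 UMIs) and Trem2 (92 and 13 UMIs), and 4 of 25 lysosome genes were lower, led by the protease Ctsl (596 and 84.9 CPM). Of all genes measured in dendritic cells 5.85% were lower. Subcluster 3 of that class, led by Ctsl, Gpnmb and Spp1, carried macrophage markers, and it held 24 control and 20 irradiated cells. Subclusters 2 (27 and 29 cells) and 7 (12 and 14 cells) carried red cell and B cell markers. Without subclusters 2, 3 and 7, 5 pathway genes over all lists were lower in dendritic cells, against 12 with them. That setting also leaves fewer UMIs for the minimum of 20, and the share of all genes was not taken there. Nothing is therefore read from the smaller count, and the part of subcluster 3 in it was not tested.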
